A study of Mus musculus with 41 samples.

Results

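The genes described here encode the proteins of the large (60S) subunit of the mouse cytosolic ribosome. They were chosen by symbol, from Rpl3 to Rpl41 with the P-stalk genes Rplp0, Rplp1 and Rplp2 and the paralogs Rpl22l1 and Rpl36al. All 47 symbols were found, among 22438 genes with ribosome footprint counts and 55385 genes with RNA values. The footprint and RNA tables gave each gene a value in every library.

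The study asked what the loss of a ribosome rescue factor, Hbs1l or its partner Pelo, or of the nonsense-mediated decay factor Upf2, does to translation. Footprints of embryos were compared between Hbs1l-/- and wild-type C57BL/6NJ mice at embryonic day 8.5, where the mutant carries a constitutive deletion of an exon and each library pooled several embryos. Footprints of single cerebella of C57BL/6J mice at postnatal day 14 were compared between Atoh-Cre Hbs1l cKO mice and Atoh-Cre Hbs1l +/+ controls. The Atoh-Cre transgene recombines in the granule cell lineage, and by the methods the cKO mice were Hbs1l fl/-, so the other cells of their cerebellum keep a single working copy of Hbs1l while those of the controls keep both. Primary mouse embryonic fibroblasts (MEFs) on a C57BL/6 background carried the tamoxifen-inducible CAG-Cre ER transgene alone (controls) or with conditional alleles of Hbs1l, Pelo or Upf2 (by the methods Hbs1l fl/-, Pelo fl/fl and Upf2 fl/fl, so that only the Hbs1l cells had a null allele before treatment), and all of them, controls included, were treated with tamoxifen. According to the methods, the cKO cerebella and all MEF groups, controls included, also carried the n-Tr20 B6J allele, which lowers the level of an arginine tRNA of the nervous system. They also say that the Hbs1l lines were backcrossed to bring in this allele, without listing it for the embryos or the control cerebella. There were 3 libraries per group, except for 2 RNA libraries of Pelo-/- MEFs, where the submitters left out another as an outlier. RNA was measured in MEFs only, so translation efficiency (TE, the footprint change relative to the mRNA change) exists only there.

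The 60S subunit holds the peptidyl transferase centre, the tunnel through which the nascent chain leaves, the P stalk that recruits translation factors and the L1 stalk that moves with the outgoing tRNA. The mRNAs of ribosomal proteins are the classical TOP mRNAs, whose cap is followed by a run of pyrimidines through which mTORC1 signalling tunes their translation. Some ribosomal protein genes limit their own expression by splicing a transcript that nonsense-mediated decay (NMD) removes, as described for the worm homologs of Rpl3, Rpl10a and Rpl12.

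How much of a ribosomal protein gene a short read can measure depends on its processed pseudogenes, which copy its coding sequence. Each member's longest coding sequence was therefore split into all 30-mers, close to a footprint in length, and searched in the transcripts of every other gene of the Gencode M21 annotation (GRCm38). Of the 47 members, 21 had no 30-mer of their own, 13 had their own in under 10% of the sequence and 13 in at least 10%. Across 21901 coding genes the median was 100%, and 862 genes (3.94%) had none. The members with most sequence of their own were Rpl8 (88.8%), Rpl41 (70.6%), Rpl4 (59.5%) and Rpl22 (42.0%). In 9 of the 21 members without any, another coding sequence of the same gene did hold 30-mers of its own. Pseudogenes that hold at least 10% of the 30-mers of a member are called its copies. The members had 644 of them in the annotation, between 1 and 88 each, with a median of 8. Rpl7a had 88, Rpl21 had 79 and Rpl29 had 70. The RNA values list 643 of these copies and the footprint counts 1.

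In several members every 30-mer found in no other gene covered the same base. Below are 30 bases of the longest coding sequence (Gencode M21, GRCm38) around the base, in capitals, that lies in every 30-mer found only in that gene. They are shown because a 30-base read of this coding sequence that matches no other gene must cover that base. Positions count from 1 at the first base of the coding sequence.
Rpl6, bases 394 to 423, capital at 408: aagctgctgagccaCggcaagaagcccttc
Rpl3, bases 772 to 801, capital at 786: caccctgcccgtgtTgccttctctgtggct
Rpl30, bases 82 to 111, capital at 96: gtgctgggctacaaGcagactctgaagatg
Rpl35a, bases 142 to 171, capital at 156: gcttatgtgtataaGgcaaaaaacaataca
Rpl23, bases 239 to 268, capital at 253: tggtaattcgacaaCgaaagtcatatcgaa

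Footprint levels followed this property. In control MEFs (libraries sequenced with the Pelo-/- pool, n = 3), the highest footprint density was that of Rpl8, a protein at the peptidyl transferase centre, with 1456 ± 49.5 CPM (counts scaled to the library total) per kilobase of coding sequence (SD). Rpl4, which lines the exit tunnel, followed with 691 ± 50.2, then the acidic stalk proteins Rplp1 with 643 ± 72.4 and Rplp2 with 388 ± 36.3. Rpl4 and Rplp1 did not differ beyond their spread, nor did Rpl22 (322 ± 27.7), Rpl34 (318 ± 48.6) and Rpl23 (303 ± 44.5). At the low end stood Rpl17 with 1.01, Rpl21 with 0.961 and Rpl23a with 0.524, the last from 1 to 6 counts a library. The median CPM was 8.65 for members without own 30-mers, 34.7 for those with under 10% and 124 for those with at least 10%. Spearman's rho between the share of own 30-mers and the footprint density was 0.747 over the 47 members, which share the same libraries and differ in length, base composition and mRNA level. How reads that match several places were counted is not given in the sources used here, so a level below is that of the footprints counted on a gene, which can be fewer than it had.

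Rpl8 had the highest density in wild-type embryos (4133 ± 352) and in control cerebellum (425 ± 26.6) as well. Rpl4 and Rpl8 together held 50.8% of all member footprints in wild-type embryos, 41.3% in control cerebellum and between 50.1% and 50.5% in the control pools of MEFs.

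**Figure D1:**
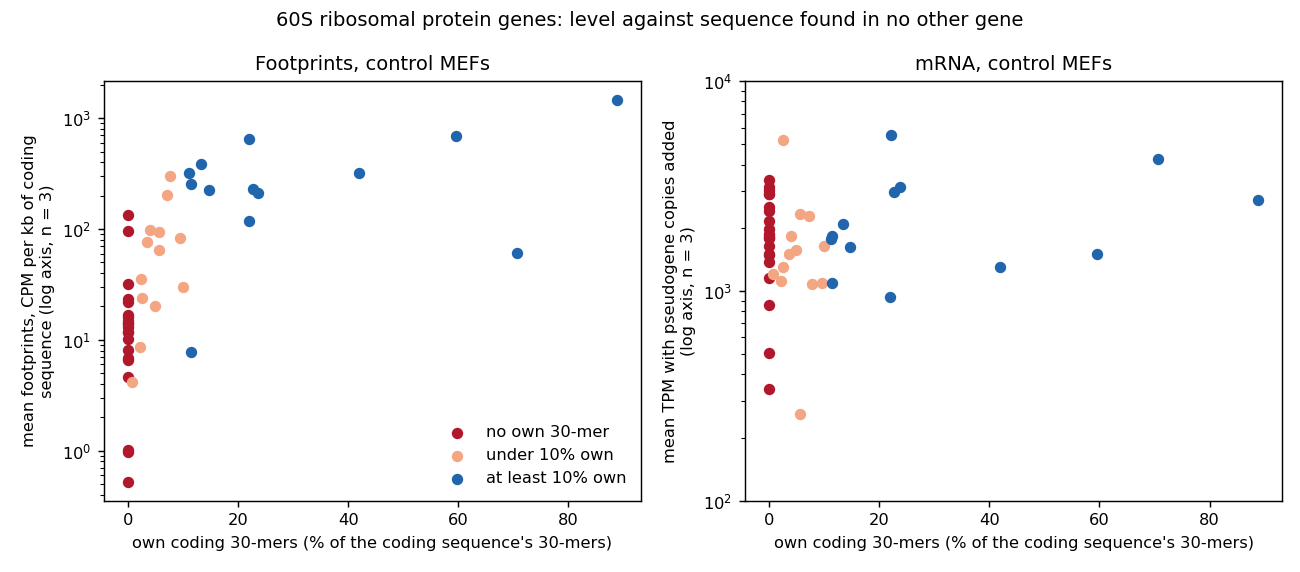
The left panel plots the mean footprint density of each of the 47 genes in control MEFs (CPM per kilobase of coding sequence, log axis, n = 3) against the percentage of its coding 30-mers found in no other gene, and the right panel plots the mean mRNA level with pseudogene copies added (TPM, log axis, n = 3) against the same. Footprint density runs from 0.524 to 1456 and is higher in genes with own sequence (rho 0.747), while the mRNA medians of the 3 classes of genes lie between 1502 and 1826 TPM.

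The mRNA levels had another order. Kallisto, which shares reads between matching transcripts, gave Rplp1 5557 ± 734 TPM (its unit of transcript abundance, scaled for length and library size, n = 3 control libraries, SD), Rpl13a 5241 ± 475 and Rpl41 4266 ± 607. Rplp1 and Rpl13a did not differ beyond their spread. Rpl12, the base of the P stalk, had 47.5 ± 1.53 TPM, but 3140 with the TPM of its copies added, so that 98.5% lay on copies. For Rpl5, which carries 5S rRNA into the ribosome with Rpl11, the values were 31.6 ± 3.04 and 1488, with 97.9% on copies. Adding the copies raised 7 members by at least 2-fold, among them Rpl27a (526 to 3380), Rpl28 (884 to 2518), Rpl27 (751 to 1982), Rpl31 (785 to 1820) and Rpl10a (649 to 1500). With copies added, the median was 1826 TPM for members without own 30-mers, 1502 for those with under 10% and 1820 for those with at least 10%. Spearman's rho between footprint density and TPM with copies was 0.0387 over the 47 members, described over the same shared libraries.

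The TOP run was looked for at the annotated start of each gene. A run of at least 8 letters C or T, on the gene's own strand, between 20 bases before and 20 after the start was counted in the RefSeq promoter table (GRCm38.p6), which held 36 of the 47 members. Such a run was present in 19 of 36 members (52.8%), in 12 of 25 genes of 40S proteins (48%), in 4 of 10 other TOP genes (40%) and in 4965 of all 27025 windows (18.4%). No such run was found for Rpl10a, Rpl12, Rpl24 and Rpl37, which the promoter table also held. Windows with a run are shown for some other members that the comparisons turn on, with the run in capitals, each written 5′ to 3′ on the gene's strand.
Rpl27a, chr7:109519185-109519214, plus strand: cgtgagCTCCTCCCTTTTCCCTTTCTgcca
Rpl38, chr11:114668572-114668601, plus strand: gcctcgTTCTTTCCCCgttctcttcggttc
Rplp2, chr7:141447640-141447669, plus strand: tcagcgTCTTCCTTTCgccgccggacgccg
Rpl22l1, chr3:28805503-28805532, plus strand: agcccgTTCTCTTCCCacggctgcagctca
Rpl4, chr9:64173363-64173392, plus strand: gacaagTCTTTCCTTTTCCTgtgggagcag
The run of Rpl27a, of 20 bases, is the longest of these. A match is a description of the letters only, and the absence of one says nothing of the cap site used in these cells.

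The 30 footprint libraries held between 2634480 and 25607974 counts, and the 11 RNA libraries between 22713643 and 86425762. Footprints on the targeted genes followed the labels in the Hbs1l and Pelo groups, where Hbs1l had 2.53 to 8.84 CPM in Hbs1l-/- embryos against 48.8 to 57.7 and 1.51 to 2.58 in Hbs1l-/- MEFs against 32.5 to 38.1, and Pelo had 2.03 to 2.93 in Pelo-/- MEFs against 31.7 to 37.1. In cerebellum Hbs1l had 13.2 to 15.8 CPM against 35.6 to 43.8. Upf2 went against its label, with 114 to 118 CPM of footprints against 46.98 to 57.8 and 29.5 to 64.8 CPM of RNA against 14.7 to 21.7. A count over a whole gene does not check a deletion of some of its exons, and these samples are called libraries labelled Upf2-/- below. The control MEF footprint libraries of the same number in the 3 sequencing pools differed on average over genes little more than by counting error (chi-square per gene 1.10 to 1.19, against 4.07 to 11.7 between numbers), so the 3 footprint comparisons of MEFs share control samples, as do the 3 RNA comparisons. Single members did differ between pools. Of 43 members with at least 20 counts in each pool for some control number, 6 differed by over 1.5-fold between pools in at least 1 number, namely Rpl13a, Rpl19, Rpl24, Rpl31, Rpl35 and Rpl39. Rpl24 in control library 3 had 61 counts in the Hbs1l pool, 208 in the Pelo pool and 417 in the Upf2 pool (a 5.38-fold range per library total), and Rpl13a in control library 2 had 101, 440 and 586 (5.06-fold).

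In Hbs1l-/- embryos, 6 of the 46 members tested had fewer footprints and none had more. The background over all 11416 genes was 0.955% called lower and 0.92% called higher. A member was called at an adjusted p of at most 0.05 by edgeR (quasi-likelihood, Benjamini-Hochberg over all genes), as in all comparisons below. The median log2 fold change of the 46 members was -0.65, beside 0.01 over all genes, and 41 of them were below 0. In 19 members all mutant libraries lay below all wild-type libraries, and in 2 above, without a share over all genes to set beside these counts.

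Rpl38, a small protein at the surface of the subunit (chr11:114668524-114672331), had 7.79, 1.26 and 2.18 CPM (scaled with TMM factors, as for the CPM of single genes from here on) in Hbs1l-/- libraries 1 to 3 and 25.3, 31.2 and 24.1 in wild type. All mutant values lay below all wild-type values, and the log2 fold change was -2.67 ± 0.45 (SE, adjusted p = 0.00928). Rpl24, which reaches across to the 40S subunit in a bridge between the subunits (chr16:55966275-55971435), had 13.5, 4.28 and 9.80 against 43.9, 57.0 and 32.2, again without overlap (-2.24 ± 0.34, adjusted p = 0.00454). Rpl10a, the protein of the L1 stalk (chr17:28328471-28331033), had 46.6, 5.29 and 5.08 against 140, 118 and 97.0. Its first mutant library lay between the other two and the wild type (-2.50 ± 0.55, adjusted p = 0.0368). Rpl27a (chr7:109519147-109522367), of which the long TOP run is shown above, had 18.7, 1.01 and 5.81 against 43.1, 53.2 and 40.4 (-2.29 ± 0.52, adjusted p = 0.0426). Rpl21 fell from between 4.06 and 6.32 CPM to between 0.755 and 1.09 (-2.55 ± 0.54, adjusted p = 0.0314). Its mutant values are close to the limit of detection, and it passed the filter on low counts through the wild-type libraries only. Only Rpl37 of the 6 had at least 10% own sequence and a high level, with 287, 184 and 187 CPM against 465, 399 and 342 (-0.87 ± 0.18, adjusted p = 0.0324). The other 5 were among the 20 tested members without own 30-mers, and no member with under 10% own sequence was called.

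The 2 members with most footprints did not pass the test. Rpl4 had 2400, 2669 and 2540 CPM against 2567, 2341 and 2280 (log2 fold change 0.08, adjusted p = 0.786), and the groups overlapped. Rpl8 had 3127, 2291 and 2204 against 3578, 2988 and 3349, where the first mutant library lay within the wild-type range (-0.38, adjusted p = 0.243). In the P stalk, Rplp0, its scaffold, had 627, 418 and 327 against 644, 548 and 624 and Rplp1 had 447, 220 and 491 against 370, 378 and 465. Rplp2 stood apart from them with 343, 948 and 1058 against 372, 412 and 314, higher in mutant libraries 2 and 3 only (1.09, adjusted p = 0.0774). Rpl3, at the peptidyl transferase centre, had 152, 68.7 and 45.7 against 115, 96.3 and 97.8. Rpl31, at the tunnel exit, had 26.2, 0.755 and 2.18 against 52.5, 93.5 and 36.1, a log2 fold change of -2.45 that missed the threshold (adjusted p = 0.0795). Mutant library 1 lay nearer the wild type in most of these members. Without it 32 members were called, and without wild-type library 2 none was.

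**Figure D2:**
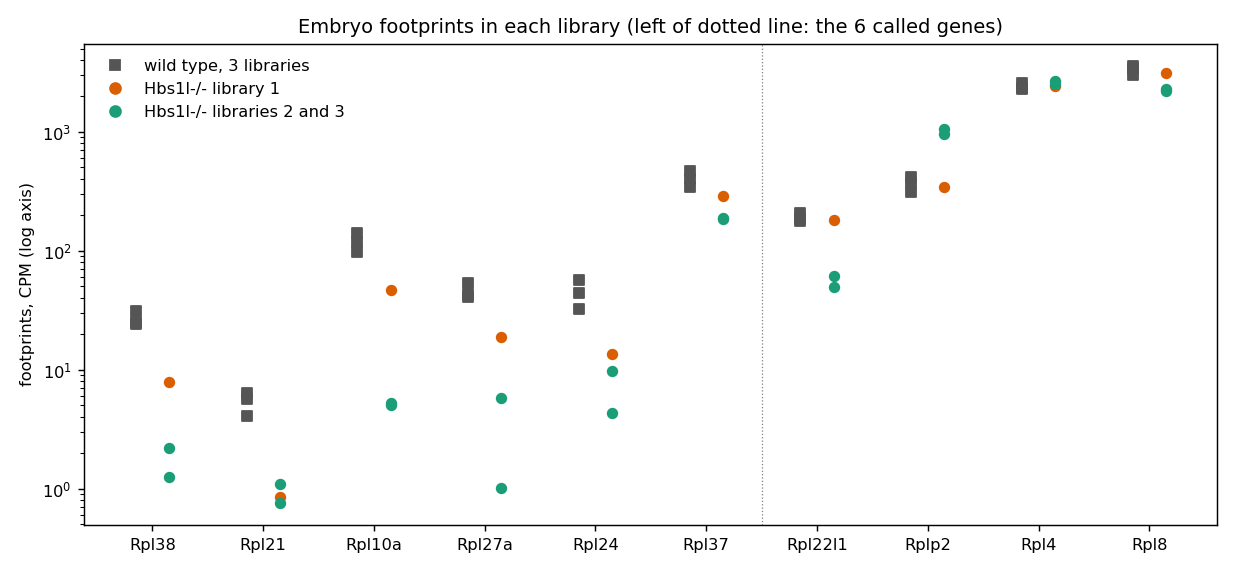
Footprints (CPM, log axis) of 10 of the genes in each embryo library, with wild type as squares, Hbs1l-/- library 1 and libraries 2 and 3 as circles of different colours. The 6 called genes left of the dotted line show no overlap between genotypes, and library 1 lies nearest the wild type for Rpl38, Rpl10a, Rpl27a, Rpl24 and Rpl37.

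Cell type markers moved with genotype in the embryos. The summed level of the 7 early embryo markers was 3245 to 8010 CPM in Hbs1l-/- libraries and 12620 to 16436 in wild type, and that of the 4 trophoblast markers 71.7 to 587 against 3.42 to 5.90, with all members of both lists detected in the mutants. The early embryo list holds the globins Hbb-bh1, Hbb-y and Hba-x beside Tbx5, T and Pou5f1, and how much of its sum lay on the globins is not given. These sums, like all marker sums below, are scaled to the library total without TMM factors. The 3 endothelium markers summed to 409 to 608 CPM in Hbs1l-/- against 338 to 356 in wild type, and the 2 epithelium markers to 464 to 606 against 338 to 381. Their part in the result was not tested, and in bulk samples fewer cells of a type cannot be told apart from less RNA per cell.

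In Hbs1l cKO cerebellum, 0 of 46 members passed edgeR's test, where 0.0554% of all 14430 genes were called higher and 0.00693% lower. At an unadjusted p under 0.05 there were 13 members, and DESeq2 called 2. The median log2 fold change was 0.33, with 41 of 46 members above 0, and in 14 members all mutant libraries lay above all controls. No share over all genes stands beside these counts or that at an unadjusted p. Rpl14, on the solvent side of the subunit, had the lowest adjusted p, with 65.8, 63.2 and 69.4 CPM against 40.3, 48.7 and 48.0 (0.53 ± 0.12, adjusted p = 0.121). Rpl37a had 10.8, 13.5 and 13.6 against 5.99, 8.59 and 8.18 (0.72 ± 0.19, adjusted p = 0.163). The groups did not overlap in either. The same held for Rpl8, with 426, 419 and 467 against 325, 362 and 337, for Rpl4, with 406, 353 and 359 against 317, 351 and 282, and for Rplp0, with 78.2, 84.8 and 89.6 against 64.3, 74.0 and 66.5. The 3 Purkinje cell markers summed to 3525 to 3924 CPM in cKO and 4636 to 6603 in control libraries, and the 5 granule cell markers to 2843 to 3619 and 2811 to 4928. The 3 leukocyte markers summed to 109.7 to 114.5 CPM in cKO and 81.1 to 92.6 in control libraries. Their part in these values was not tested.

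In Hbs1l-/- MEFs, footprints of 9 of 44 members tested rose and none fell, beside 17.4% called higher and 16.7% called lower of all 11984 genes. The share of members called higher was thus near the background, and that of members called lower was below it. The largest increase was that of Rpl35a, a gene mutated in Diamond-Blackfan anaemia, with 12.2, 16.3 and 13.2 CPM against 7.64, 7.62 and 10.1 (log2 fold change 0.69 ± 0.16, adjusted p = 0.00523). Rpl23, which lies at the interface with the small subunit, had 182, 225 and 211 against 151, 117 and 158 (0.53 ± 0.11, adjusted p = 0.0016). Rpl22l1, the paralog of Rpl22, had 52.9, 67.0 and 55.3 against 37.9, 37.1 and 46.8 (0.51 ± 0.11, adjusted p = 0.00293). No mutant value overlapped a control value in these or in the other 6, which were Rpl30 (0.43), Rpl7 (0.40), Rpl4 (0.35), Rplp0 (0.32), Rpl8 (0.29) and Rpl6 (0.29). None of the 18 tested members without own 30-mers was called, against 5 of 13 with under 10% and 4 of 13 with at least 10%.

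In the mRNA of Hbs1l-/- MEFs, 1 of 47 members rose and 1 fell, beside 12.7% and 10.4% of all genes. At an unadjusted p under 0.05 there were 11 members, and DESeq2 called 6. Rpl18 had 1547, 1405 and 1672 CPM against 1188, 1007 and 1246 (0.43 ± 0.12, adjusted p = 0.0288). Rpl7 had 452, 549 and 573 against 756, 706 and 819 (-0.54 ± 0.12, adjusted p = 0.0125). With more footprints on less mRNA, Rpl7 was the only member of 44 called in TE by edgeR (0.96 ± 0.15, adjusted p = 0.0468), where 0.0168% of genes were called higher and 0.0168% lower, while DESeq2 called 4. Rpl23 (0.89) and Rpl35a (0.88) came next, both at an adjusted p of 0.0935. The adjusted p of Rpl7 ranged from 5.31e-06 to 0.198 over the alternative settings.

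Pelo-/- MEFs showed the widest change. Footprints of 35 of 46 members rose and none fell, beside 22.9% called higher and 21.2% lower of all 12486 genes, and the median log2 fold change was 0.57. By role, all 3 members of the peptidyl transferase centre, all 6 at the tunnel exit, all 4 of the P stalk, all 4 of the paralog pairs and the L1 stalk protein Rpl10a were called, with 2 of 3 of the exit tunnel, 2 of 3 bridge proteins and 1 of 2 of the 5S particle. Of the members given none of these roles 13 of 21 were called. The count at the tunnel exit includes Rpl23a, which passed the filter on low counts only through the Pelo-/- libraries. By own sequence, 16 of 20 members without any, 8 of 13 with under 10% and 11 of 13 with at least 10% were called, with medians of 0.94, 0.56 and 0.43.

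Rpl27a went far beyond the rest, with 85.8, 126 and 83.2 CPM in Pelo-/- libraries 1 to 3 and 3.96, 4.72 and 5.35 in controls (log2 fold change 4.39 ± 0.20, adjusted p = 2.11e-07). Rpl31 had 7.6, 22.6 and 31.1 against 2.55, 4.07 and 3.30, without overlap but with a wide spread among the mutants (2.63 ± 0.46, adjusted p = 0.00121). Rpl23a, at the tunnel exit, had 1.14, 1.03 and 0.922 against 0.176, 0.488 and 0.0891, close to the limit of detection (1.96 ± 0.52, adjusted p = 0.012). It passed the filter on low counts only through the Pelo-/- libraries, so its call rests on the libraries that admitted it. In footprints of Hbs1l-/- MEFs and of libraries labelled Upf2-/- it was not tested. Rpl24 was called (1.67 ± 0.57, adjusted p = 0.036) although its groups overlapped, with 65.8, 16.7 and 17.8 against 6.51, 6.34 and 18.5.

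Other members rose by less. Rpl10a had 21.1, 24.7 and 27.2 CPM against 8.27, 9.52 and 10.1 (1.39, adjusted p = 2.4e-05). Rpl10, which is loaded last and tests the peptidyl transferase centre, had 22.7, 26.03 and 23.6 against 8.80, 11.8 and 9.54 (1.26, adjusted p = 3.86e-05). In the P stalk, Rplp2 had 239, 296 and 287 against 139, 124 and 144 (1.01, adjusted p = 2.08e-05), and Rpl12 had 8.43, 8.15 and 8.45 against 4.401, 4.23 and 3.65 (1.03). None of these groups overlapped. Rplp0 (0.52) and Rplp1 (0.53) rose by about the same amount, with 328, 321 and 297 against 220, 225 and 217 and with 308, 335 and 323 against 248, 226 and 197. Rpl3 rose by 0.95, Rpl39 by 1.02 and Rpl36a by 0.93. The abundant Rpl4 (0.36, adjusted p = 0.0018), Rpl8 (0.33) and Rpl22 (0.22) rose by less than the called members named before them. The other 11 members did not pass the test, among them Rpl11 (0.20), Rpl13a (0.42), Rpl34 (-0.04), Rpl35a (0.08), Rpl41 (0.07) and Rpl7a (-0.21).

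Messenger RNA moved the other way in the same cells. Of 47 members 32 fell and none rose, beside 16.6% called lower and 15.5% called higher of all genes, and the median was -0.41. In 43 members both Pelo-/- libraries lay below all 3 controls, again without a share over all genes beside this count. Rpl7 had 296 and 334 CPM against 742, 719 and 817 (-1.27 ± 0.11, adjusted p = 0.000786). Rpl5, an assembly partner of 5S rRNA and a regulator of Mdm2, had 15.2 and 19.5 against 39.4, 36.0 and 41.5 (-1.17 ± 0.14, adjusted p = 0.0018). These counts leave out the copies on which 97.9% of its control TPM lies, and with them the value was -0.81 (adjusted p = 0.00325). Rpl21 had 275 and 303 against 566, 587 and 715 (-1.11 ± 0.13, adjusted p = 0.00173). The groups did not overlap in these, but they did in Rpl3, Rpl10, Rpl12 and Rpl13, and Rplp0 (-0.16) and Rpl3 (-0.08) did not pass the test. With 2 mutant libraries the count depended on each of them. It was 8 without Pelo-/- library 1, 11 without library 2 and 19 without control library 3.

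TE rose in 38 of 46 members and fell in none, beside 24.3% called higher and 20.4% lower, with a median of 1.07 beside 0.04 over all genes. All 46 values were above 0. Rpl27a led with 4.70 ± 0.25 (adjusted p = 1.17e-07), followed by Rpl31 (3.09), Rpl23a (2.52) and Rpl24 (2.204). Here too Rpl23a was tested only through its Pelo-/- footprints. Rpl7, whose mRNA fell most, had 1.76 (adjusted p = 8.66e-07), and Rpl5 had 1.75 without its copies and 1.38 (adjusted p = 0.000239) with them. Among the members measured best by footprints, Rpl4 had 0.78 (adjusted p = 0.000226), Rpl8 0.72 and Rplp0 0.70. Those not called were Rpl7a (0.08), Rpl41 (0.38), Rpl34 (0.42), Rpl15 (0.50), Rpl11 (0.57), Rpl13 (0.90), Rpl13a (1.03) and Rpl17 (1.32).

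**Figure D3:**
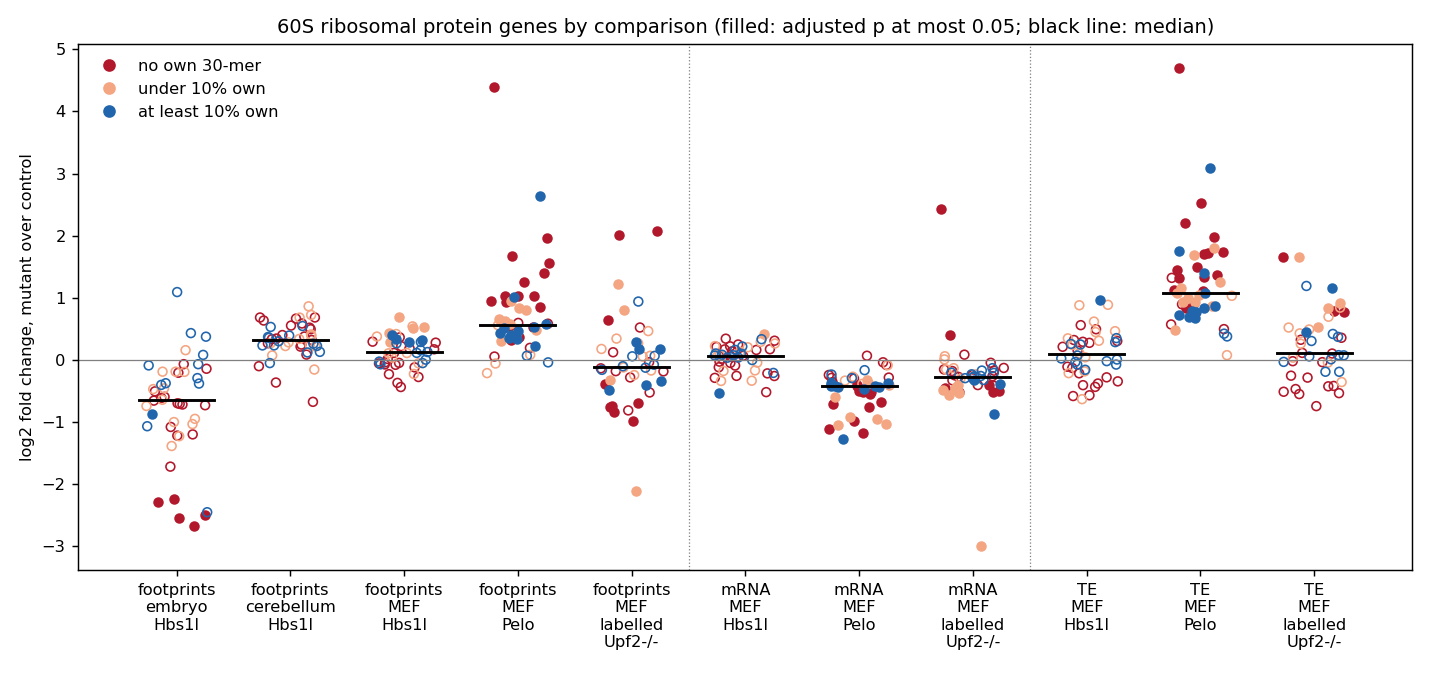
Log2 fold changes (mutant over control) of the 60S genes in the 11 comparisons, with 1 point a gene, coloured by its share of own coding 30-mers and filled where the adjusted p was at most 0.05, and the median as a black line. The median of TE in Pelo-/- MEFs is 1.07 with 38 filled points, while footprints of embryos have a median of -0.65 with 6.

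Other lists are given beside the shares over all genes of Pelo-/- MEFs, which were 22.9% called higher in footprints, 16.6% lower and 15.5% higher in mRNA and 24.3% higher in TE. Of the 40S genes, footprints of 19 of 32 were called higher, mRNA of 23 of 33 lower and TE of 29 of 32 higher. Of the other TOP genes, footprints of 12 of 16 were called higher, mRNA of 9 lower and 1 higher, and TE of 15 higher. Of the 60S assembly factors, footprints of 21 of 28 were called higher, mRNA of 6 lower and 2 higher, and TE of 18 higher. These lists were not compared with each other by a test. The 3 leukocyte markers summed to 91.6 to 141 CPM of footprints in Pelo-/- libraries and 35.5 to 46.0 in their controls, to 67.9 to 94.7 in Hbs1l-/- MEFs against 33.9 to 45.3, and to 54.8 to 62.6 in libraries labelled Upf2-/- against 33.1 to 43.6. All 7 fibroblast markers were detected in every MEF group, and their summed footprints were 33733 to 38834 CPM in Pelo-/- libraries against 27972 to 28352, 32612 to 36561 in Hbs1l-/- against 27806 to 28400 and 33880 to 36491 in libraries labelled Upf2-/- against 28003 to 28487. The 3 endothelium markers summed to 22.4 to 28.7 CPM in Pelo-/- libraries against 45.95 to 62.01, to 34.6 to 36.2 in Hbs1l-/- against 47.6 to 57.6 and to 45.997 to 56.4 in libraries labelled Upf2-/- against 48.1 to 61.1. The 2 epithelium markers summed to 2.73 to 6.94 in Pelo-/- against 0.178 to 0.524, to 0.355 to 0.844 in Hbs1l-/- against at most 0.344 and to 0.549 to 0.994 in libraries labelled Upf2-/- against 0.140 to 0.385. In footprints, 1 of the 3 endothelium markers reached a mean of 1 CPM in these groups (2 in Pelo-/-). For epithelium it was 0 of 2, except 2 in Pelo-/-. With 1 of 5 at that level, granule cell markers summed to 10.8 to 15.6 CPM in Pelo-/- against 25.4 to 31.4. They summed to 17.2 to 17.6 in Hbs1l-/- against 27.1 to 33.2 and to 13.3 to 25.7 in libraries labelled Upf2-/- against 25.9 to 32.9. In RNA of Pelo-/- MEFs the fibroblast markers summed to 14096 to 14106 CPM against 9462 to 12048 in controls, the endothelium markers to 26.4 to 31.9 against 18.9 to 24.2, opposite to the footprints, and the leukocyte markers to 23.7 to 33.2 against 14.4 to 22.96, all without overlap. In RNA of Hbs1l-/- MEFs the leukocyte markers summed to 27.4 to 44.7 and the endothelium markers to 13.3 to 16.2, and in libraries labelled Upf2-/- the endothelium markers to 13.7 to 16.8, against the same controls. Their part in the results of MEFs was not tested.

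Libraries labelled Upf2-/- had footprints of 8 of 44 members higher and of 11 lower, beside 22.3% and 21.1% of all genes, with a median of -0.11, so more and fewer footprints occurred at shares not far from the background. Those that rose most were Rpl10a, Rpl12 and Rpl35a. Rpl10a had 31.3, 42.3 and 39.97 CPM against 8.42, 8.86 and 9.83 (log2 fold change 2.08 ± 0.13, adjusted p = 1.48e-06). Rpl12 had 14.7, 15.8 and 19.6 against 3.82, 4.43 and 4.10 (2.02 ± 0.16, adjusted p = 5.49e-06), and Rpl35a had 19.3, 19.4 and 25.1 against 9.77, 8.39 and 9.26 (1.22 ± 0.14, adjusted p = 5.1e-05). All 3 mutant libraries were above all controls in each. Rpl3 (0.81), Rpl27a (0.65), Rpl7 (0.30), Rpl8 (0.18) and Rpl4 (0.18) were called higher as well.

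Rpl29, a protein that mice can live without, fell most, with 0.169, 0.179 and 1.52 CPM against 2.62, 3.09 and 1.98 (-2.11 ± 0.55, adjusted p = 0.00901). Rpl39, the smallest protein of the exit tunnel, had 1.02, 1.25 and 0.965 against 1.98, 2.08 and 2.47 (-0.98 ± 0.29, adjusted p = 0.0194). Rpl28 had 9.65, 7.25 and 7.17 against 13.6, 16.5 and 12.3 (-0.84 ± 0.17, adjusted p = 0.00194). The groups did not overlap in these 3. The other 8 that fell ranged from -0.75 (Rpl9 and Rpl5) to -0.32 (Rpl7a).

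The mRNA of 2 of 47 members rose and that of 15 fell in the libraries labelled Upf2-/-, beside 13.2% and 6.76% of all genes. Rpl12 had 230, 202 and 269 CPM against 49.1, 39.6 and 41.8 (2.42 ± 0.14, adjusted p = 1.95e-06). Rpl10a had 541, 526 and 586 against 441, 367 and 442 (0.40 ± 0.12, adjusted p = 0.0352). Both values leave out the pseudogene copies, which hold 98.5% of the control TPM of Rpl12. With the copies added the log2 fold change was 0.13 for Rpl12 (edgeR, adjusted p = 0.535) and 0.16 for Rpl10a (adjusted p = 0.351), so neither rise was called. The summed TPM of the protein-coding transcripts of Rpl12 was 14.8 ± 1.63 against 14.7 ± 1.58 (n = 3, SD). Rpl29 had 83.2, 75.8 and 78.2 against 626, 583 and 688, the largest decrease of a member in this comparison (-3.00 ± 0.12, adjusted p = 1.36e-07), and with copies added the value was -1.15 (adjusted p = 6.38e-05). Rpl7 (-0.88, adjusted p = 0.00711) and Rpl26 (-0.57, adjusted p = 0.0205) followed. Without control RNA library 3 the count of 17 called was 3. TE rose in 9 of 44 members and fell in none, beside 8.47% and 11.8% of all genes, with Rpl10a (1.66, adjusted p = 5.76e-05), Rpl35a (1.65, adjusted p = 6.19e-05) and Rpl7 (1.16, adjusted p = 0.00206) first. The TE of Rpl12 was -0.42 (adjusted p = 0.169) without its copies and 1.87 (adjusted p = 9.96e-05) with them, so its direction rests on how the copies are counted.

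**Figure D4:**
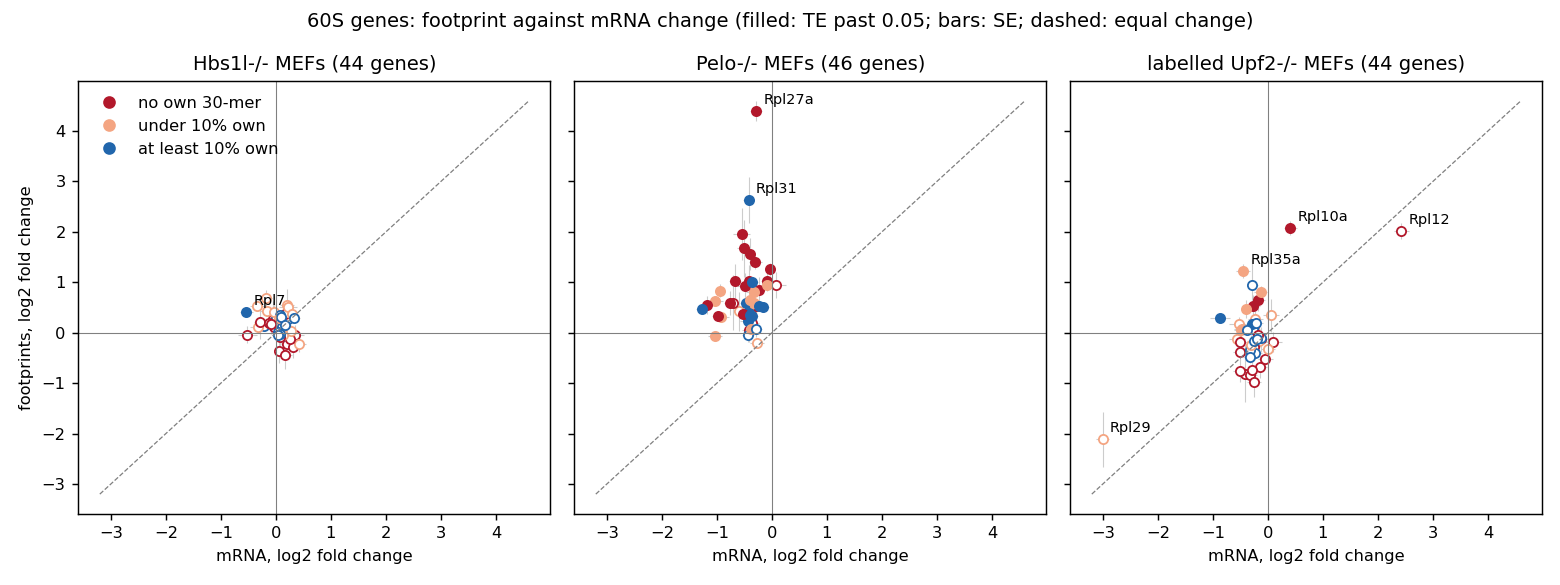
Footprint against mRNA log2 fold change (mutant over control) of the 60S genes in MEFs, 1 panel a genotype, with SE as bars, equal change as a dashed line and filled points where the TE test had an adjusted p of at most 0.05. All 46 genes of the Pelo-/- panel lie above the dashed line, while in the libraries labelled Upf2-/- Rpl12 lies near it, Rpl29 is at -2.11 in footprints against -3.00 in mRNA (not called in TE), and Rpl10a and Rpl35a lie above it. The mRNA values leave out pseudogene copies. With them the TE of Rpl12 is 1.87, and the mRNA of Rpl29 falls by less than its footprints.

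The transcript values separated these changes by isoform. In libraries labelled Upf2-/-, 40 of 247 member transcripts tested were called, 29 higher and 11 lower, in 21 genes, beside 5.35% of all transcripts. The count was 22 to 27 without any 1 of the 6 libraries, 9 with a replicate block and 84 by DESeq2. Kallisto's estimates share reads between overlapping isoforms, so values of isoforms of a gene are not independent. Among 14 tested transcripts annotated to NMD 6 rose and none fell, beside 14.7% called higher and 0.102% lower of all such transcripts. Of 78 with a retained intron 9 rose and 1 fell, beside 4.86% and 0.14%. Of 32 processed transcripts 7 rose, beside 5.59% called higher and 0.333% lower. Of the protein-coding ones 7 rose and 10 fell, beside 2.99% and 1.41%.

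The NMD isoform Rpl12-201 had 293, 268 and 318 TPM in the libraries labelled Upf2-/- and 17.8, 15.9 and 11.1 in controls (log2 fold change 4.29 ± 0.25, adjusted p = 0.00103). Rpl3-205 had 122, 137 and 128 against 7.96, 5.05 and 8.62 (4.10, adjusted p = 0.00133), and Rpl27a-205 had 82.7, 79.9 and 78.0 against 6.25, 8.90 and 5.56 (3.54, adjusted p = 0.000891). Rpl10a-203 had 405, 374 and 426 against 42.0, 46.0 and 37.3 (3.24, adjusted p = 0.000448). The groups did not overlap in any of the 4. Rpl13a-202 (1.23) and the NMD isoform of Rpl22l1 (1.13) rose by less. The coding isoform Rpl10a-201 fell over the same libraries, with 234, 283 and 168 against 518, 486 and 625 (-1.31). In Rpl29, 3 of its 6 coding isoforms were called lower, among them Rpl29-201, from 209, 223 and 280 TPM to 0.550, 0.478 and 0.515 (-8.89, adjusted p = 9.81e-05), and Rpl29-203, with a log2 fold change of -2.81. Among processed transcripts, 1 of Rpl14 (4.10), Rpl7a-203 (3.24) and Rpl13a-203 (2.04) rose.

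**Figure D5:**
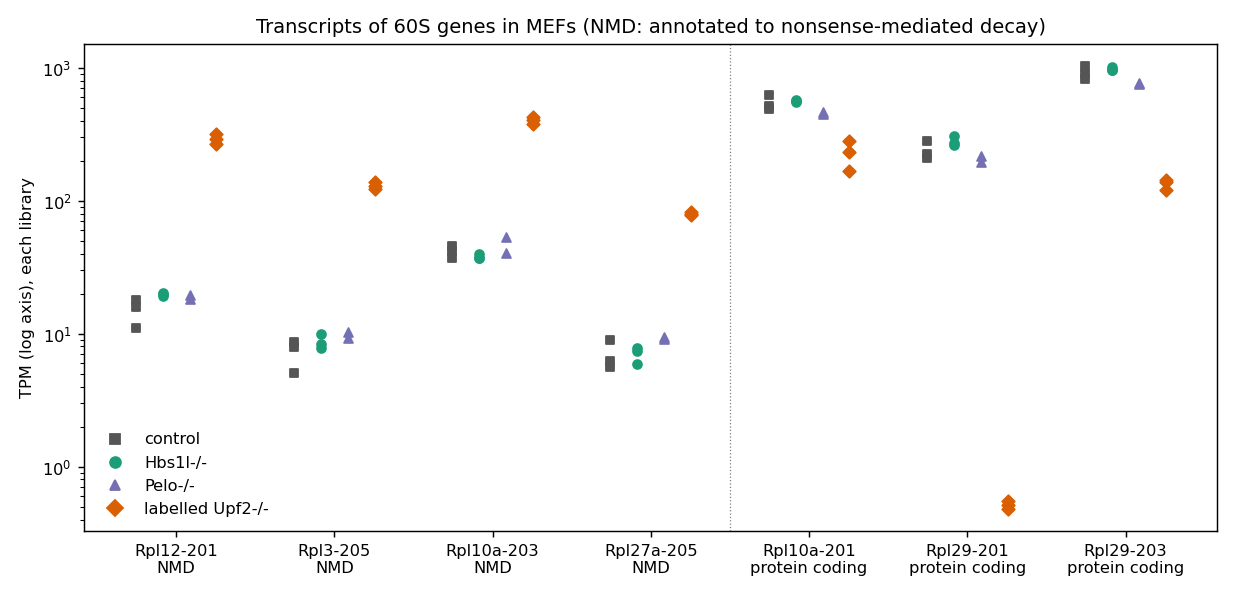
TPM (log axis) of 7 transcripts of 60S genes in each RNA library of MEFs, by genotype, with transcripts annotated to NMD left of the dotted line and protein-coding ones right of it. The 4 NMD transcripts are higher in all 3 libraries labelled Upf2-/- than in any other, and Rpl29-201 has 0.478 to 0.550 TPM in them.

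Without pseudogene copies in the total, NMD isoforms made up 54.4%, 48.5% and 58.4% of the TPM of Rpl10a in the libraries labelled Upf2-/- and 6.73%, 7.72% and 5.25% in controls. For Rpl12 the shares were 82.1%, 81.8% and 83.4% against 36.1%, 34.0% and 23.8%. They were 14.5%, 15.0% and 18.7% against 1.31%, 1.79% and 0.920% for Rpl27a, and 10.3%, 9.99% and 11.95% against 0.673%, 0.399% and 0.605% for Rpl3. With the TPM of the copies in the total, the shares were 23.4% to 29.2% against 2.27% to 3.23% for Rpl10a, 8.23% to 9.67% against 0.308% to 0.580% for Rpl12, 2.65% to 3.29% against 0.143% to 0.278% for Rpl27a and 9.95% to 11.91% against 0.398% to 0.668% for Rpl3. The groups did not overlap either way. Over all members the NMD share was 3.05% to 3.60% in libraries labelled Upf2-/-, 1.13% to 1.52% in controls, 1.30% to 1.52% in Hbs1l-/- and 1.40% in both Pelo-/- libraries.

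In Hbs1l-/- MEFs 0 of 235 member transcripts passed edgeR's test, beside 1.31% of all transcripts, while 31 had an unadjusted p under 0.05 and DESeq2 called 20. In Pelo-/- MEFs 11 of 219 fell, in 9 genes, and none rose, beside 2.37% called. They were led by Rpl4-203 (-1.39), Rpl7-201 (-1.32) and Rpl5-201 (-1.32). All of these calls were lost without any 1 of the 5 libraries, and DESeq2 called 57.

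The genotypes were set against each other in tests of the difference between their effects, which share control samples as said above. For footprints, 8 members rose more in Pelo-/- than in Hbs1l-/- MEFs and none less (5.55% of all genes were called), with Rpl27a (difference of log2 fold changes 4.16 ± 0.46, adjusted p = 0.000132), Rpl10 (1.63, adjusted p = 0.00488), Rpl10a (1.10, adjusted p = 0.00682), Rpl12 (1.07, adjusted p = 0.0227) and Rplp2 (0.86, adjusted p = 0.0114) the largest. Between libraries labelled Upf2-/- and Hbs1l-/-, Rpl12 (2.07) and Rpl10a (1.78) were higher and Rpl36al (-0.57) lower (4.93% called). Between Pelo-/- and libraries labelled Upf2-/-, 20 members were higher and 3 lower in Pelo-/- (13% called). The highest were Rpl27a (3.76, adjusted p = 1.15e-05), Rpl29 (2.67), Rpl39 (2.00) and Rpl38 (1.599), and the lower ones were Rpl35a (-1.13, adjusted p = 0.00161), Rpl12 (-0.99) and Rpl10a (-0.68). Without replicate number 1 the counts for the pairs of Pelo-/- with Hbs1l-/- and with libraries labelled Upf2-/- were 2 and 5, without number 2 the first was 5, and without number 3 that of libraries labelled Upf2-/- and Hbs1l-/- was 5.

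In mRNA, where the mutants were set directly against each other, 33 members were lower in Pelo-/- than in Hbs1l-/- MEFs and none higher (35.2% called). In libraries labelled Upf2-/-, 23 were lower than in Hbs1l-/- and 2 higher (27.1% called). Pelo-/- and libraries labelled Upf2-/- differed in 10 members (28.9% called), with Rpl29 higher in Pelo-/- (2.65, adjusted p = 2.23e-06) and 9 lower, among them Rpl12 (-2.48) and Rpl5 (-0.85), both without their copies. In TE, 33 members were higher in Pelo-/- than in Hbs1l-/- and none lower (30.6% called). Rpl10a (1.35, adjusted p = 0.0031) and Rpl35a (0.76, adjusted p = 0.0495) were higher in libraries labelled Upf2-/- than in Hbs1l-/- (5.96% called). Pelo-/- exceeded libraries labelled Upf2-/- in 22 members, led by Rpl27a (3.87) and Rpl39 (2.41), and was lower in Rpl35a (-1.19, adjusted p = 0.00134), with 21.8% of genes called. Several of these counts rest on single replicate numbers. Without number 2 no member differed in mRNA between Pelo-/- and Hbs1l-/-, where 1 Pelo-/- library is left. The mRNA count for libraries labelled Upf2-/- and Hbs1l-/- was 13, 7 and 15 without numbers 1, 2 and 3, and that for Pelo-/- and libraries labelled Upf2-/- was 3 without number 1 and without number 2. The TE counts without number 1 were 20, 1 and 7 in the order above, and the one for libraries labelled Upf2-/- and Hbs1l-/- was 0 and 1 without numbers 2 and 3.

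The effect of Hbs1l loss also differed between sources of cells, although tissue, strain and sequencing pool went together and cannot be told apart, and in the pairs with cerebellum the size range of the footprints went with them. Between embryo and cerebellum, Rpl38 differed (-3.32 ± 0.57, adjusted p = 0.0178), as did 0.732% of all genes. Between embryo and MEFs 10 members were lower in the embryo and none higher, beside 7.46% of all genes called. They were Rpl21 (-3.90), Rpl10a (-2.76), Rpl27a (-2.57), Rpl38 (-2.57), Rpl24 (-2.35), Rpl35a (-1.33), Rpl6 (-1.26), Rpl23 (-0.98), Rpl37 (-0.86) and Rpl8 (-0.66). Rpl21 entered this test through the embryo libraries, with 4, 2 and 6 counts in the control MEFs of the Hbs1l pool. The count of 10 was 19, 0 and 2 without replicate numbers 1, 2 and 3, and that of embryo against cerebellum was 12, 0 and 0. Between cerebellum and MEFs edgeR called 0 members, with 7 at an unadjusted p under 0.05, 0 by DESeq2 and 4.87% of all genes called.

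Each mutant was finally read through the members' share of the library total and the ratio within pairs of paralogs. The share of all footprints that lay on the 47 members was 0.933% ± 0.0937 in Hbs1l-/- and 1.08% ± 0.0539 in wild-type embryos (SD, n = 3), without overlap. It was 0.204% ± 0.0162 in cKO and 0.153% ± 0.0165 in control cerebellum, and in MEFs 0.479%, 0.548% and 0.433% in Hbs1l-/-, Pelo-/- and libraries labelled Upf2-/- against 0.396%, 0.397% and 0.398% in their controls. Every one of these 5 comparisons had p = 0.1 in the exact two-sided permutation test, the smallest that 3 against 3 can give. Rpl4 and Rpl8 hold much of this share. Without them it was 0.394% to 0.498% against 0.517% to 0.550% in embryos, 0.111% to 0.135% against 0.0733% to 0.101% in cerebellum, 0.220% to 0.236% against 0.187% to 0.201% in Hbs1l-/- MEFs and 0.290% to 0.293% against 0.190% to 0.203% in Pelo-/- MEFs, still without overlap. In libraries labelled Upf2-/- it was 0.189% to 0.220% against 0.193% to 0.202%, and the groups overlapped. The share of RNA was 3.87% ± 0.375 in controls, 4.19% ± 0.088 in Hbs1l-/- (exact permutation p = 0.4), 2.96% ± 0.046 in Pelo-/- (p = 0.1, the smallest for 2 against 3) and 3.38% ± 0.0748 in libraries labelled Upf2-/- (exact permutation p = 0.1).

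Rpl22 and Rpl22l1 can replace each other in the ribosome, and Rpl22 is known to repress Rpl22l1. Rpl22l1 took 26.5%, 11.6% and 13.7% of the footprints of the pair, per coding length, in Hbs1l-/- embryos and 24.4%, 26.5% and 26.8% in wild type. The mutant libraries 2 and 3 lay below all others and library 1 did not (exact permutation p = 0.3). In MEFs the share was 30.7% ± 4.92 in Pelo-/- against 22.5% ± 2.19 and 26.9% ± 3.18 in Hbs1l-/- against 21.8% ± 1.52, both without overlap (exact permutation p = 0.1 each). It was 30.3% ± 4.83 against 23.4% ± 2.81 in libraries labelled Upf2-/- (exact permutation p = 0.2). In cerebellum footprints it was 34.5% ± 0.578 in cKO against 41.0% ± 7.12 (exact permutation p = 0.3), and in RNA of Hbs1l-/- MEFs 21.03% ± 4.14 against 16.8% ± 1.13 (exact permutation p = 0.2). In RNA the Pelo-/- libraries moved the other way, with 12.7% ± 1.38 against 16.8% ± 1.13 (exact permutation p = 0.1), and the mRNA of Rpl22l1 fell from 67.7, 67.7 and 73.3 CPM to 36.0 and 36.2 (-0.95) while its footprints rose from 35.7, 43.0 and 44.6 to 90.3, 66.5 and 63.9 (0.84). Rpl36al, an intronless copy of Rpl36a, held between 92.7% and 95.4% of the footprints of its pair on average in control MEFs but 37.2% ± 0.951 of the TPM. Its footprint share was 93.2% ± 0.832 in Pelo-/- MEFs against 95.4% ± 0.476, without overlap (exact permutation p = 0.1). Neither Rpl36a nor Rpl36al had a coding 30-mer found in no other gene. Its RNA share was 29.5% ± 2.05 in Pelo-/- MEFs and 39.8% ± 0.516 in Hbs1l-/- MEFs, on opposite sides of the controls without overlap (exact permutation p = 0.1 each).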

How the data were processed

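Ribosome footprints were measured in 30 libraries and poly(A) RNA in 11 libraries of MEFs. For footprints the authors deposited whole-number counts per gene: after removal of ribosomal RNA reads with Bowtie2 2.2.3 they aligned reads to mm10 with HISAT2 2.1.0 and counted those on coding sequence with featureCounts. For RNA they deposited estimated counts and TPM per transcript, made with kallisto 0.42.4. Their RNA counts for TE are not used here.

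Samples were grouped by the labels. Per gene, the deposited estimated counts were added up and rounded to whole numbers, and histone genes were left out of footprint and TE tests, as in the study. Each comparison was fitted over all genes with edgeR 4.0.16 in R 4.3.3 (TMM factors, default filter on low counts, quasi-likelihood test, Benjamini-Hochberg adjustment, threshold 0.05). TE was the interaction of assay and genotype, and differences between genotypes or tissues were interactions too, except for RNA, where mutants were contrasted directly. Self-tests on simulated counts were run first. The alternatives were DESeq2 1.42.0, RLE factors, TMM factors without ribosomal protein genes, no filter, pseudogene counts added, control libraries summed over pools, a replicate block and leaving out each library. Adding all pseudogene copies and leaving Rpl4 and Rpl8 out of the share of the library were chosen after seeing the data. The symbols, roles and other lists were chosen with earlier results of these data known. Values in every library are given in each comparison for up to 3 members that rose most and up to 3 that fell most past the threshold (where none passed, the 2 of lowest adjusted p), for members chosen by role, and for the targeted genes. P-values over MEF replicates, each from 1 embryo, and over embryo pools measure the spread between these samples. Counts of members at an unadjusted p, above or below 0, or without overlap were not set against shares over all genes. Own-sequence searches used Gencode M21 transcripts, and start windows the RefSeq table of GRCm38.p6, which held 36 of the 47 members.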

Additional observations from a re-analysis of the deposited data

Results flagged for a closer look

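Tests of the difference between 2 effects called members in 11 pairs of comparisons, and these are given as values only. For footprints, 8 members differed between Pelo-/- and Hbs1l-/- MEFs, all higher in Pelo-/-, 3 between libraries labelled Upf2-/- and Hbs1l-/-, and 23 between Pelo-/- and libraries labelled Upf2-/-. The shares over all genes were 5.55%, 4.93% and 13%. For mRNA the counts for these pairs were 33, 25 and 10 of 47 members, beside 35.2%, 27.1% and 28.9% of all genes, and for TE they were 33, 2 and 23, beside 30.6%, 5.96% and 21.8%. The mRNA count of 10 lies below its background and the TE count of 2 near its own. Rpl10a and Rpl12 were called in all 3 footprint pairs, and Rpl27a in both that hold Pelo-/- cells (4.16 and 3.76 on the log2 scale). The effect of Hbs1l loss on footprints differed between embryo and cerebellum in 1 member, Rpl38, and between embryo and MEFs in 10, all lower in the embryo, where tissue, strain and pool cannot be told apart, nor, against cerebellum, the size range of the footprints.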

How the results depend on the processing

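No replicate block enters the values of the report, since same-numbered libraries did not deviate together in every comparison. In embryos their correlations were 0.018, 0.020 and 0.041, above those of all other pairs there. For footprints they were 0.269, -0.230 and 0.145 in cerebellum and 0.039, -0.099 and -0.233 in libraries labelled Upf2-/-. Under the replicate block, counts of called members were 16 for embryo footprints, 15 for Pelo-/- mRNA, 13 for the footprint difference of Pelo-/- and Hbs1l-/- MEFs, 16 for the mRNA difference of libraries labelled Upf2-/- and Hbs1l-/-, 1 for their TE difference, 3, 18 and 1 for embryo against cerebellum, embryo against MEFs and cerebellum against MEFs, and 0 and 9 for transcripts in Pelo-/- and libraries labelled Upf2-/-.

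DESeq2 called 2 members in cerebellum, 6 in Hbs1l-/- mRNA, 4 in Hbs1l-/- TE, 4 in the TE difference of libraries labelled Upf2-/- and Hbs1l-/-, 9 for embryo against cerebellum, and 20, 57 and 84 transcripts in Hbs1l-/-, Pelo-/- and libraries labelled Upf2-/-. Without the filter 16 members were called in embryos. RLE factors in 26 results, TMM factors without ribosomal protein genes in 11, pseudogene counts added in 19 and all copies added in 14 kept the value on the same side or, for counts, within 1.5 times.

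Leaving out 1 library gave counts of 0 to 32 in embryos, 0 to 4 in cerebellum (4 without control library 3), 8 to 11, 26 to 35 and 12 (without library 3) to 19 for footprints of Hbs1l-/-, Pelo-/- and libraries labelled Upf2-/-, 1 to 3, 8 to 35 and 3 to 15 for their mRNA, and 0 to 1, 35 to 40 and 5 to 12 for their TE. For the differences Pelo-/- less Hbs1l-/-, Upf2-/- less Hbs1l-/- and Pelo-/- less Upf2-/-, leaving out a replicate number gave 2 to 6, 2 to 5 and 5 to 20 for footprints, 0 to 32, 7 to 15 and 3 to 15 for mRNA, and 20 to 27, 0 to 1 and 7 to 19 for TE. It gave 0 to 12 for embryo against cerebellum, 0 to 19 for embryo against MEFs, 0 to 1 for cerebellum against MEFs, and 0, 0 and 22 to 27 for transcripts. Without 1 of the 2 Pelo-/- RNA libraries the other was assumed to vary like the controls. The causes were not tested. The TE of Rpl12 in libraries labelled Upf2-/- reversed to 1.87 with pseudogene copies added, the only reversal among the named results checked. With copies the mRNA of Rpl29 there fell by less than its footprints, and without them by more. The side of its TE, which was not called, thus depends on the copies too. Counting error is widest for members with few counts, such as Rpl23a with 1 to 6 a control library.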

Other observations

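In control MEFs single libraries stood apart in some members with little or no own sequence. Rpl24, a bridge protein, had 18.5 CPM in control library 3 of the Pelo pool against 6.34 and 6.51 in the other two, and 29.5 in control library 3 of the Upf2 pool against 4.88 and 7.31, but 5.45 in control library 3 of the Hbs1l pool against 6.16 and 7.47. Rpl13a had 35.8 and 39.3 CPM in control library 2 of the Pelo and Upf2 pools and 7.70 in that of the Hbs1l pool. These values went with the pool as well as with the library.

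The members called lower in Hbs1l-/- embryos had these log2 fold changes of footprints in embryos and in Pelo-/- MEFs, which share no libraries: -2.67 and 1.56 for Rpl38, -2.50 and 1.39 for Rpl10a, -2.29 and 4.39 for Rpl27a, -2.24 and 1.67 for Rpl24, and -0.87 and 0.58 for Rpl37. All 5 were called in both comparisons, in Pelo-/- MEFs as 5 of the 35 of 46 members called higher there. In Hbs1l-/- MEFs none of the 5 was called, with values of -0.08 for Rpl38, 0.30 for Rpl10a, 0.28 for Rpl27a, 0.11 for Rpl24 and 0.01 for Rpl37. Rpl21 was not tested in Pelo-/- MEFs.

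Among genes of other lists, Fau (-2.19) and Rps16 (-2.67) of the 40S subunit were lower in Hbs1l-/- embryos, where the medians were -0.48 for 32 genes of 40S proteins, -0.10 for 16 other TOP genes and 0.09 for 28 factors of 60S assembly. Rpl39l, a paralog of Rpl39, rose in Pelo-/- footprints with a log2 fold change of 1.58.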
